A study of Glycine max with 4 samples.

Results

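The binding sites described here lay in windows of the soybean genome with many sites. They are sites of the GLYMA.06G314400 protein that were peaks in both replicates of a chromatin immunoprecipitation (ChIP-seq) experiment, with their summits in a 50 kb window that held at least 10 such summits. Overlapping peaks of the 2 deposited lists were joined into regions, and regions with a peak of each list are called sites. Each chromosome was divided into fixed 50 kb windows, and a site was placed by the summit of its replicate 2 peak. Of 36103 sites on the 20 chromosomes, 1709 (4.73%) lay in 159 crowded windows, which are 0.838% of the 18979 windows. They were compared with the 12459 sites (34.5%) in 6798 sparse windows of 1 to 3 sites. Both groups were chosen by the positions of sites found in both lists, so counts, spacing and sharing between lists are given as descriptions, with no test.

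The early maturation embryos came from Glycine max plants of cultivar Williams 82 and were dissected from seeds of 6 to 7 mm, and all samples share this genotype, stage and a 1% formaldehyde fixation. The 2 ChIP libraries are biological replicates precipitated with an antibody to a peptide of the protein (amino acids 224 to 238), and 2 input libraries hold chromatin that was not precipitated. Whole embryos were used, so sites bound in different cell types of the embryo are summed in each list. No library with another antibody was analysed here.

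The peak names carry the word AREB3, a name used for ABA-responsive element binding factors. Such factors belong to the bZIP family of transcription factors, which bind DNA as dimers at elements with an ACGT core. Abscisic acid is a hormone of seed maturation, and in Arabidopsis factors of this group act on genes for seed storage, desiccation tolerance and dormancy. In embryo genes the ABA-responsive element often occurs near the start of the gene. No label or file header used here names the genome build of the lists, and no genome sequence was used, so positions below have no gene assigned and no sequence is shown.

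Windows grew rarer with each further site. There were 2888 windows with 1 site, 1085 with 5, 154 with 9, 86 with 10, 46 with 11 and 21 with 12. Windows with 13, 14, 15 and 17 sites occurred once each, and 2 windows held 16. Most members therefore came from windows near the limit, since 1366 of the 1709 lay in windows of 10 or 11 sites. The mean over all windows was 1.90 sites. The limit of 10 fell on a smooth decline with no step, and the sites on either side of it had close medians. The 1386 sites of windows with 9 had a median fold enrichment of 7.42 and 6.45 in replicates 1 and 2, and the 860 sites of windows with 10 had 7.37 and 6.48.

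**Figure D1:**
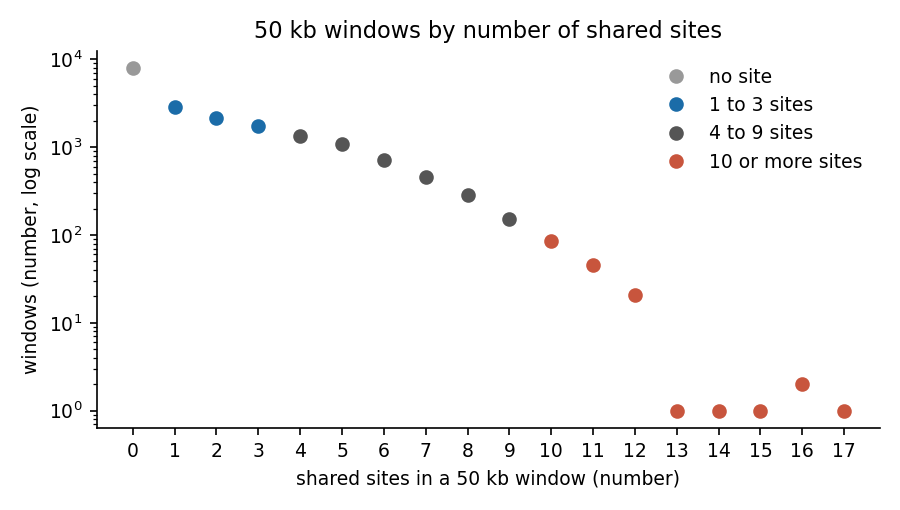
Number of 50 kb windows (log scale) by the number of sites they held, over 20 chromosomes. The count declines from 2888 windows with 1 site to 86 with 10, and 6 windows stand beyond 12 sites.

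The placing of window edges decided which sites were members. When the windows were cut from 25 kb in place of 0, there were 161 crowded windows, but 546 of the 1709 members (31.9%) lay in one of them. In those shifted windows the members lay in windows of 8 sites in the median, with a range of 2 to 16. The 25 kb on both sides of a crowded window, which together equal its length, held a median of 5 sites and a range of 0 to 13. In 5 of 159 cases the flanks held as many sites as the window or more. Crowded windows stood alone in 139 cases and side by side in 10 pairs, and no run was longer than 2. The fullest pairs, with 22 sites in 100 kb each, began on chromosome 4 at 3300001, on chromosome 6 at 350001 and at 3150001, and on chromosome 17 at 550001.

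Every chromosome had crowded windows, in unequal numbers. Chromosome 13 had 18 of them with 192 members, and chromosome 17 had 17 with 186 members. On chromosome 17 the members were 9.18% of the sites of that chromosome, the highest share, and on chromosome 18 they were 1.24%, the lowest. Chromosomes 16 and 18 had 2 crowded windows each, with 20 and 21 members. Of the members, 1336 (78.2%, exact 95% interval 76.1 to 80.1) lay in the outer 20% of the chromosome span at either end, against 6469 of the sparse-window sites (51.9%, 51.0 to 52.8) and 68.5% of all sites. Windows of 4 to 6 and of 7 to 9 sites had 74.9% and 82.1% there, so a high share was not particular to crowded windows. Crowded windows centred between 40 and 60% of a span were found on chromosome 13, where there were 6 with 63 sites, and on no other chromosome. On chromosome 20, 12 of 64 members were in the outer zones, and most of its crowded windows lay next to the outer zone at the far end. These intervals and all intervals of shares below cover counting error, and sites are not biological replicates.

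**Figure D2:**
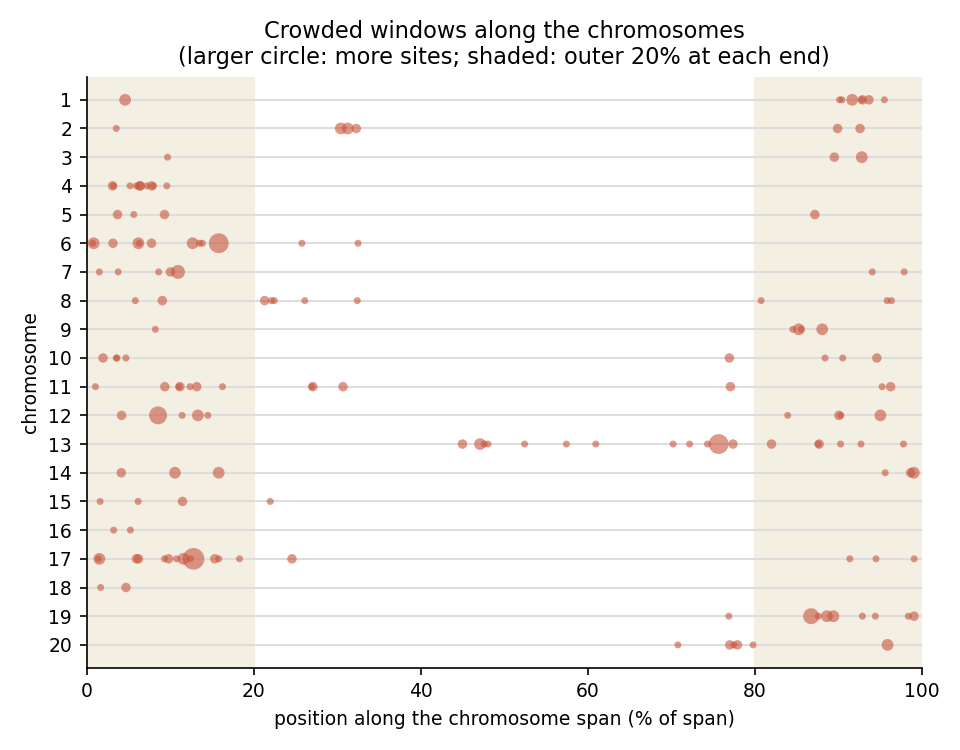
Median position of the sites of each of the 159 crowded windows, as % of the chromosome span (to the end of the last peak), with circle size growing with the number of sites. Crowded windows cluster in the shaded outer zones on most chromosomes, whereas chromosome 13 has 6 in its middle zone.

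Within a crowded window the sites were spread out and unevenly spaced. The first and last summit lay a median of 41238 bp apart (lowest 18583, highest 49338). The 1550 gaps between neighbouring summits in a window had a median of 2791 bp and an interquartile range of 1346 to 5652 bp. The longest gap was 23293 bp. In 238 cases (15.4%) the gap was at most 1000 bp, and in 605 (39.0%) at most 2000 bp. The closest pair lay on chromosome 1, from 2602131 to 2602447 and from 2602458 to 2602863, with summits 278 bp apart. Both were low, with fold enrichment of 3.03 and 2.67 in replicates 1 and 2 for the first, and 5.78 and 3.16 for the second. Even so, sites covered only a small part of a crowded window, with a median of 9.83% of its length and a range of 7.44 to 15.5%.

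The fullest window, on chromosome 17 from 5300001 to 5350000, had 17 sites, each with 1 peak in each replicate. Fold enrichment here is the value that the authors deposited for a summit, that is ChIP fragments there divided by background fragments, after adding 1 to both. The window opened with a pair of low sites 2.20 and 2.97 kb from its start, with 5.00-fold and 5.30-fold enrichment in replicate 1 and 4.35-fold and 3.98-fold in replicate 2. After a gap without sites, a low pair followed at 12.3 and 13.5 kb, with 3.53-fold and 4.72-fold enrichment in replicate 1 and 3.76-fold and 4.25-fold in replicate 2. The strongest site of the window came next, from 5315081 to 5315574, where 96 fragments were piled up and 161 in replicates 1 and 2. Its fold enrichment was 22.6 and 18.9 in replicates 1 and 2, and its summits lay 3 bp apart.

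A row of 5 modest sites ran from 17.5 to 24.9 kb. Their fold enrichment was 5.47, 5.80, 6.55, 6.34 and 5.07 in replicate 1, in order along the chromosome, and 4.33, 3.16, 5.20, 3.27 and 5.13 in replicate 2. The next strongest site, from 5326060 to 5326546, rose above them with 18.9-fold enrichment and 12.9-fold in replicates 1 and 2. Beyond it, sites at 28.2, 30.3, 31.9 and 33.1 kb had 6.11-, 11.6-, 5.67- and 7.67-fold enrichment in replicate 1 and 4.74-, 8.66-, 4.81- and 6.89-fold in replicate 2. Their last summit lay 14660 bp before that of the next site, which opened the last pair, at 47.8 and 48.9 kb, with 7.66-fold and 8.08-fold enrichment in replicate 1 and 6.82-fold and 8.41-fold in replicate 2. Thus 2 of the 17 sites reached 10-fold in both replicates. Spearman rho between the replicates was 0.775 over the 17 sites, below the median of 0.826 over the 159 crowded windows.

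The other full windows also held tall and low sites. The strongest site is named here by the lower of its 2 fold enrichments, and on chromosomes 13, 6 and 12 another site was taller in replicate 1. On chromosome 13 from 34650001 to 34700000, 16 sites had a median fold enrichment of 8.69 and 8.25 in replicates 1 and 2, and the strongest by this rule, from 34677058 to 34677602, had 18.9 and 18.3, beside a highest replicate 1 value of 26.5 in the window. On chromosome 6 from 8100001 to 8150000, 16 sites had medians of 5.89 and 4.60, and the strongest by this rule, from 8136606 to 8137021, had 16.6 and 13.8, beside a highest replicate 1 value of 16.8. On chromosome 12 from 3400001 to 3450000, 15 sites had medians of 5.43 and 5.86, with 20.5 and 18.7 at the strongest by this rule, from 3441480 to 3442029, beside a highest replicate 1 value of 22.6. The 14 sites on chromosome 19 from 44000001 to 44050000 had medians of 6.67 and 6.48. Their strongest, from 44024386 to 44025081, stood far above the median with 34.0-fold enrichment and 23.5-fold in replicates 1 and 2. Of these windows, the one on chromosome 6 had the largest part covered by sites of all 159, at 15.5%.

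The window with the highest median in replicate 2 was on chromosome 18 from 2700001 to 2750000. It had 11 sites with a median fold enrichment of 11.0 and 13.6 in replicates 1 and 2, and 6 of them reached 10-fold in both. The strongest member by the lower of its replicates, from 2729776 to 2730523, was in this window, with 33.2-fold enrichment and 36.7-fold in replicates 1 and 2. A member from 2732771 to 2733667 followed with 31.4 and 31.9, its summit less than 3 kb away. Between them, at 30.9 kb from the window start, stood a site with 20.5 and 11.7. Another tall site at 37.0 kb had 31.0-fold enrichment and 18.3-fold in replicates 1 and 2. Low sites stood among them, such as the one at 34.2 kb with 4.64 and 4.27. Windows with 6 sites of 10-fold or more in both replicates were also found on chromosome 4, starting at 4050001, and on chromosome 13, starting at 34050001.

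The window with the lowest median in replicate 2 was on chromosome 6 from 3200001 to 3250000. It belongs to one of the fullest pairs, since the window before it was also crowded. Its 10 sites had a median fold enrichment of 4.44 and 3.67 in replicates 1 and 2, and none reached 10-fold in both. The site from 3210291 to 3211117 was the tallest in replicate 1 with 13.5-fold enrichment, and had 7.96-fold in replicate 2. In replicate 2 the tallest was the site from 3227590 to 3228022 with 9.33-fold enrichment, against 6.28-fold in replicate 1. The replicates thus named different sites as the strongest in this window.

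**Figure D3:**
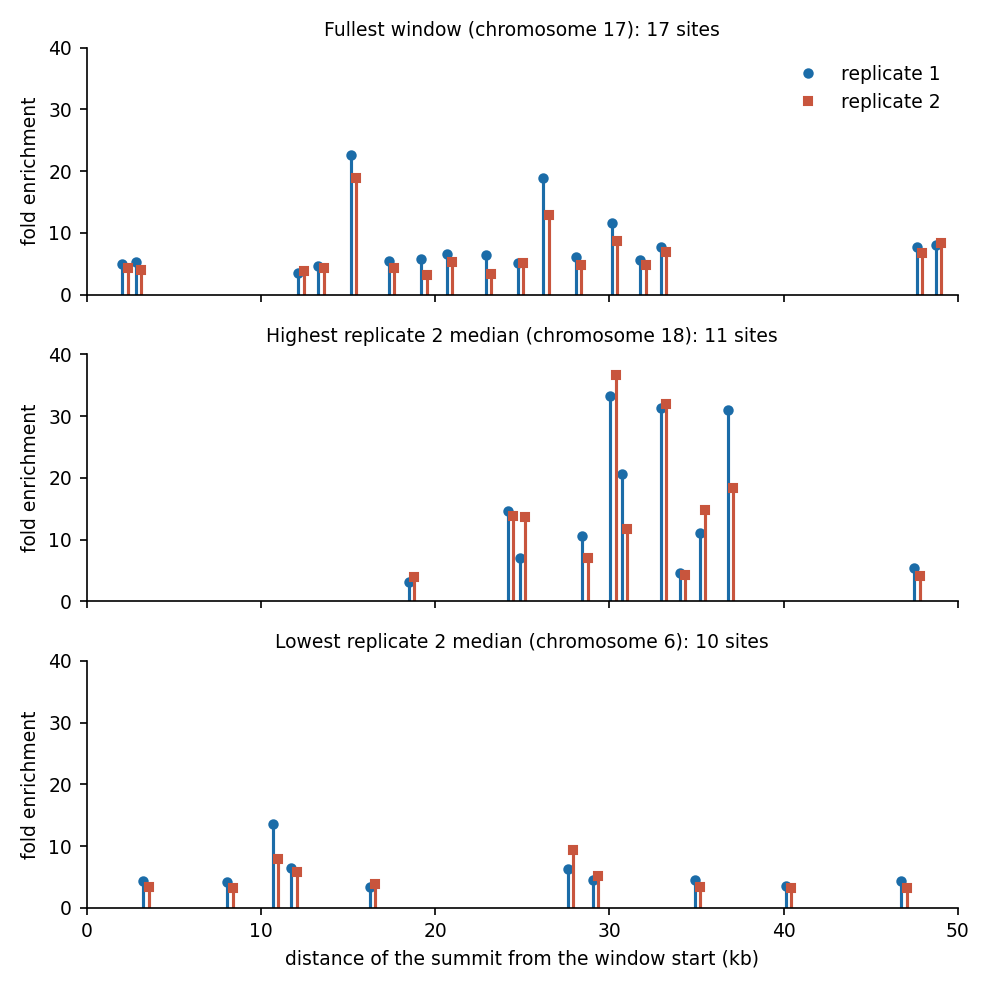
Fold enrichment at each site of 3 crowded windows, by distance of its replicate 2 summit from the window start (kb), in replicate 1 (circles) and replicate 2 (squares). The fullest window has 2 tall sites among lower ones, tall sites gather between 24 and 37 kb in the chromosome 18 window, and the chromosome 6 window has no site at 10-fold in both replicates.

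Apart from the 2 in the chromosome 18 window, 3 more members had the highest fold enrichment in the lower of their replicates. One lay on chromosome 12 from 38062392 to 38063131, with 36.0 and 30.3 in replicates 1 and 2. Another lay on chromosome 18 from 968864 to 970820, with 52.2 and 29.7, where replicate 1 had 3 peaks under 1 peak of replicate 2. The last lay on chromosome 17 from 4486349 to 4487251, with 33.7 and 29.2. The pileups at these 3 summits spanned 165 to 240 fragments (replicate 1) and 235 to 311 (replicate 2). At the other end stood a member on chromosome 12 from 36091627 to 36092023, with 5.63-fold enrichment and 2.05-fold in replicates 1 and 2. The background there was 3.44 fragments in replicate 1 and 13.6 in replicate 2.

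Over all 159 windows, the share of tall sites was close to that of all sites, at 22.5% of members against 20.9% of all 36103 sites with 10-fold enrichment or more in both replicates. At 10 or more sites a window, 146 windows (91.8%) had at least 1 such site. Most often there were 2 (42 windows) or 3 (41 windows), and 13 windows had none. Fold enrichment at the tallest site of a window had a median of 21.4 in replicate 1 (lowest 8.40, highest 56.1) and 16.6 in replicate 2 (7.47 to 36.7). It stood a median of 2.86 times above the median site of its window in replicate 1 and 2.54 times in replicate 2. The lowest site of a window had a median of 3.93 and 3.23 in replicates 1 and 2. In 96 windows (60.4%) the tallest site was the same in both replicates, and the rank correlation between replicates within a window had a median of 0.826 (0.318 to 0.976).

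Neighbours often differed in height. The stronger of 2 neighbouring sites had a median of 1.66 times the fold enrichment of the weaker in both replicates, and 36.8% of the 1550 pairs and 36.4% in replicates 1 and 2 differed by at least 2-fold. Log2 fold enrichment of neighbours had a Pearson correlation of 0.059 and 0.042 in replicates 1 and 2. Spearman rho was 0.044 and 0.037. These are descriptions across 1550 pairs that share a library and, in chains along the window, their sites. Like values for unrelated pairs of sites or for other windows are not given here. Nothing particular to neighbours or to crowded windows is therefore read from these values. Windows accounted for 1.17% of the variance of log2 fold enrichment among members and 1.05% in replicates 1 and 2, and the SD within windows was 0.80 and 0.77. Window medians had a Spearman rho of 0.765 between replicates over the 159 windows, whose sites are the same in both.

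Crowded windows had a smaller share of peaks found in 1 list alone than sparse windows, as their choice favours. Shares over all peaks and in windows of 4 to 9 sites are not given here, so nothing particular to crowded windows is read from this. Replicate 1 had 1804 peaks in them, of which 75 (4.16%, exact 95% interval 3.28 to 5.18) overlapped no replicate 2 peak. In sparse windows it was 1324 of 13871 (9.55%, 9.06 to 10.0). Replicate 2 had 1946 peaks in crowded windows, of which 228 (11.7%, 10.3 to 13.2) overlapped no replicate 1 peak, against 4701 of 17242 (27.3%, 26.6 to 27.9) in sparse windows. These single-list peaks were low in both groups, with a median fold enrichment of 4.46 and 3.50 in replicates 1 and 2 in crowded windows and 4.35 and 3.62 in sparse windows. In 98 crowded windows there was no such peak of replicate 1 and in 45 none of replicate 2.

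Windows were chosen by the number and position of sites and not by their height beyond the peak threshold, which every site of both groups passed in both lists. No difference in height between sites of crowded and sparse windows was detected in either replicate. Per chromosome, the median fold enrichment of members in replicate 1 ranged from 6.11 to 10.1 with a middle value of 6.93, and that of sparse-window sites from 6.75 to 7.50 with a middle value of 7.23. In replicate 2 it ranged from 5.54 to 11.5 with a middle value of 6.37 in crowded windows, and from 6.12 to 6.59 with a middle value of 6.39 in sparse windows. The groups overlapped, and the medians of crowded windows spread wider on both sides. Those medians rest on 20 to 192 members a chromosome, from 1709 in all against 12459 sparse-window sites, so nothing is read from their wider spread. Over sites, the interquartile range in replicate 1 was 5.18 to 11.4 in members and 5.11 to 11.1 in sparse windows. In replicate 2 it was 4.43 to 9.96 and 4.59 to 9.62.

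On the log2 scale the difference, crowded minus sparse, had a median of -0.03 over 20 chromosomes in replicate 1 (interval from the ordered values -0.11 to 0.05, which covers 95.9%), with 9 chromosomes higher and 11 lower (exact sign test, two-sided, p = 0.824, adjusted p = 0.961). In replicate 2 it was 0.01 (-0.04 to 0.04), with 12 higher and 8 lower (p = 0.503, adjusted p = 0.705, same exact sign test). Adjustment is by Benjamini-Hochberg over 7 measures. As ratios, the intervals run from 0.924 to 1.03 in replicate 1 and from 0.972 to 1.03 in replicate 2. A chromosome counts as 1 value here, since sites of a window share their surroundings, and p-values measure the spread between chromosomes, not between embryos.

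Chromosome 18 stood apart in this comparison. Its members had a median fold enrichment of 10.1 and 11.5 in replicates 1 and 2, against 7.32 and 6.59 for its sparse-window sites. These medians rest on the 21 members of 2 windows, one of them the window described above. Chromosome 9 came next, with 8.92 against 6.98 in replicate 1 and 7.52 against 6.25 in replicate 2. On chromosomes 2 and 5 members were lower, with 6.11 against 7.07 and 6.12 against 7.38 in replicate 1 and 5.54 against 6.46 and 5.72 against 6.57 in replicate 2.

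**Figure D4:**
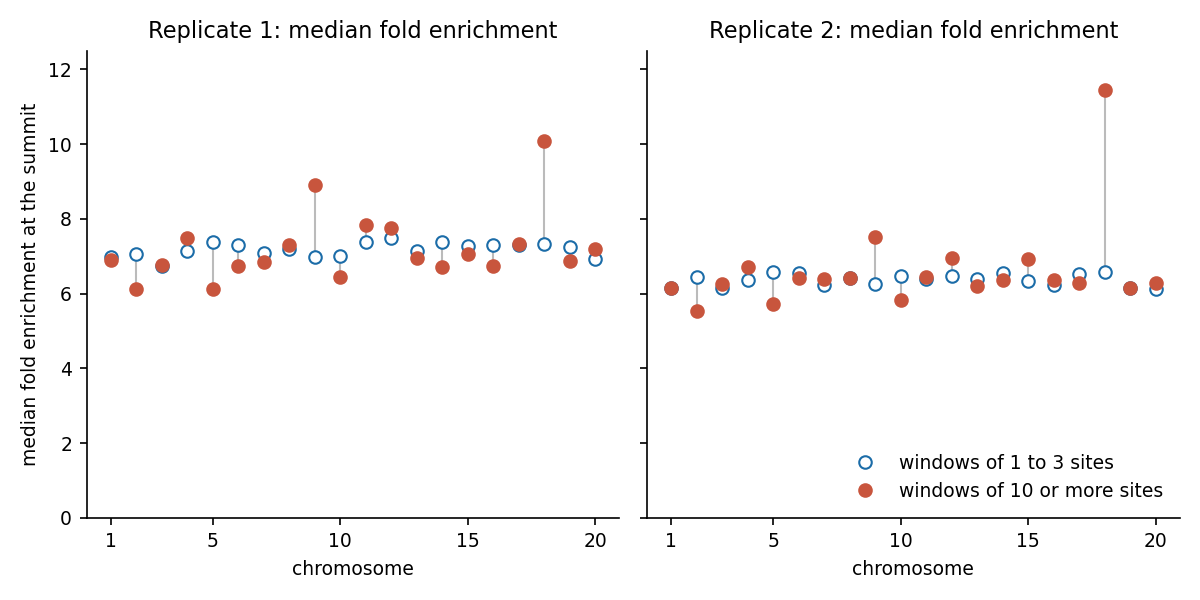
Median fold enrichment at the summit on each of 20 chromosomes, for sites of windows with 10 or more sites (filled) and of windows with 1 to 3 (open), in each replicate. The points lie close together on most chromosomes, on either side of each other, and chromosome 18 has the widest distance, 10.1 against 7.32 in replicate 1 and 11.5 against 6.59 in replicate 2.

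The medians were also close at intermediate crowding. In windows of 1 to 3, 4 to 6, 7 to 9 and 10 or more sites, the median fold enrichment was 7.19, 7.08, 7.17 and 7.09 in replicate 1. In replicate 2 it was 6.37, 6.30, 6.34 and 6.34. Median pileups at the summit were 34 fragments in sparse and 35 in crowded windows in replicate 1, and 60 and 61 in replicate 2. Sites with at least 10-fold enrichment in both replicates made up 385 of 1709 members (22.5%, exact 95% interval 20.6 to 24.6). Among sparse-window sites they were 2566 of 12459 (20.6%, 19.9 to 21.3). In windows of 4 to 6, 7 to 9 and 12 or more sites the share was 20.6%, 21.4% and 21.9%. The difference in this share was not tested. Fold enrichment under 5 was found in 22.8% of members and 23.3% of sparse-window sites in replicate 1, and in 32.7% and 31.6% in replicate 2. Replicate 1 had the higher fold enrichment in 71.0% of members and 69.3% of sparse-window sites.

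The background under the sites was slightly higher in crowded windows, which passed the test in replicate 2. The background is the number of fragments that the caller expected at the summit. In MACS2 with an input control it comes from the scaled input and is no lower than a genome-wide mean, but the control behind these lists is not stated. Its lowest values were 3.00 and 6.36 fragments in replicates 1 and 2. In replicate 2 the median background of members ranged over chromosomes from 7.80 to 8.93 fragments with a middle value of 8.74, against 8.17 to 8.74 with a middle value of 8.36 in sparse windows. It was higher in crowded windows on 17 of 20 chromosomes, by a median of 0.05 on the log2 scale (interval 0.03 to 0.07, a ratio of 1.04; exact sign test, two-sided, adjusted p = 0.0180). In replicate 1 it was higher on 15 of 20, by 0.06 (interval 0.002 to 0.14), with middle values of 3.88 and 3.72 fragments (exact sign test, p = 0.0414, adjusted p = 0.0966). Median backgrounds often repeated, with 4.09 against 3.72 fragments on each of chromosomes 3, 6, 7, 8 and 9 in replicate 1. Over sites, the replicate 2 median was 8.36 in sparse windows and 8.74 in windows of 4 to 6, 7 to 9 and 10 or more. A higher background than in sparse windows was thus not particular to crowded windows.

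With the same exact sign test, the call in replicate 2 was lost when sites in the outer 20% of the chromosomes alone were compared (0.01, adjusted p = 0.390) and when windows of 4 to 9 sites were the comparison (0.001, adjusted p = 1). In the exact sign test it was also lost with windows cut from 25 kb (0.02, adjusted p = 0.368), with at least 12 sites (0.02, adjusted p = 0.341) and with peaks of q 1e-10 or less (0, adjusted p = 1). As a description, the background lay at its lowest value for 29 members (1.70%, exact 95% interval 1.14 to 2.43) and 967 sparse-window sites (7.76%, 7.30 to 8.25) in replicate 1, and for 14 (0.819%, 0.449 to 1.37) and 604 (4.85%, 4.48 to 5.24) in replicate 2. Over all sites these shares were 4.73% and 2.49%, and in windows of 7 to 9 sites 2.19% and 0.847%, close to the members. The highest background of a member was 7.68 fragments and 18.5 in replicates 1 and 2. A background over 20 fragments was rare in any window, at 2 and 42 of all 36103 sites in replicates 1 and 2, and nothing is read from its absence among the members.

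Peak width did not differ past the threshold after adjustment, and its middle value was larger in crowded windows in both replicates. In replicate 2 the median width over chromosomes ranged from 346 to 438 bp with a middle value of 387 bp in crowded windows, and from 353 to 385 bp with a middle value of 371 bp in sparse windows. The difference was 15.8 bp (interval 0.5 to 26.0), with 15 chromosomes wider and 5 narrower (exact sign test, p = 0.0414, adjusted p = 0.0966). In replicate 1 it was 8.5 bp (-7.5 to 20.5), with 13 wider and 7 narrower (exact sign test, adjusted p = 0.461). Against windows of 4 to 9 sites it was 0 bp in replicate 1, with 10 chromosomes wider and 10 narrower. In replicate 2 it was 7 bp there (exact sign test, adjusted p = 0.807). Over sites, the median width was 364 bp in members and 363 bp in windows of 7 to 9 in replicate 1, and 383 and 382 bp in replicate 2. A larger width than in sparse windows was thus not particular to crowded windows. With all peaks of a single list, whether or not the other replicate had them, windows were chosen anew, so these are not the members described here. There were 257 crowded windows with 2803 peaks in replicate 1 and 553 with 6153 in replicate 2. Crowded minus sparse, the difference was 11.2 bp in replicate 1 (adjusted p = 0.00664) and 19.2 bp in replicate 2 (adjusted p = 0.00109), both from the exact sign test. Peaks found in 1 list alone enter there, and their part in the difference was not tested. Sites of at least 1000 bp made up 42 members (2.46%, exact 95% interval 1.78 to 3.31) and 149 sparse-window sites (1.20%, 1.01 to 1.40). Over all sites the share was 1.52%, in windows of 7 to 9 sites 1.90%, and in windows of 12 or more 1.46% (5 of 343). Of the 42 wide members, 31 reached 10-fold in both replicates, with no like count for other windows given here. More than 1 peak of a replicate was joined in 1.64% of members (1.09 to 2.36) and 1.25% of sparse-window sites (1.06 to 1.46). Over all sites it was 1.43%, and in windows of 7 to 9 sites 1.55%.

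**Figure D5:**
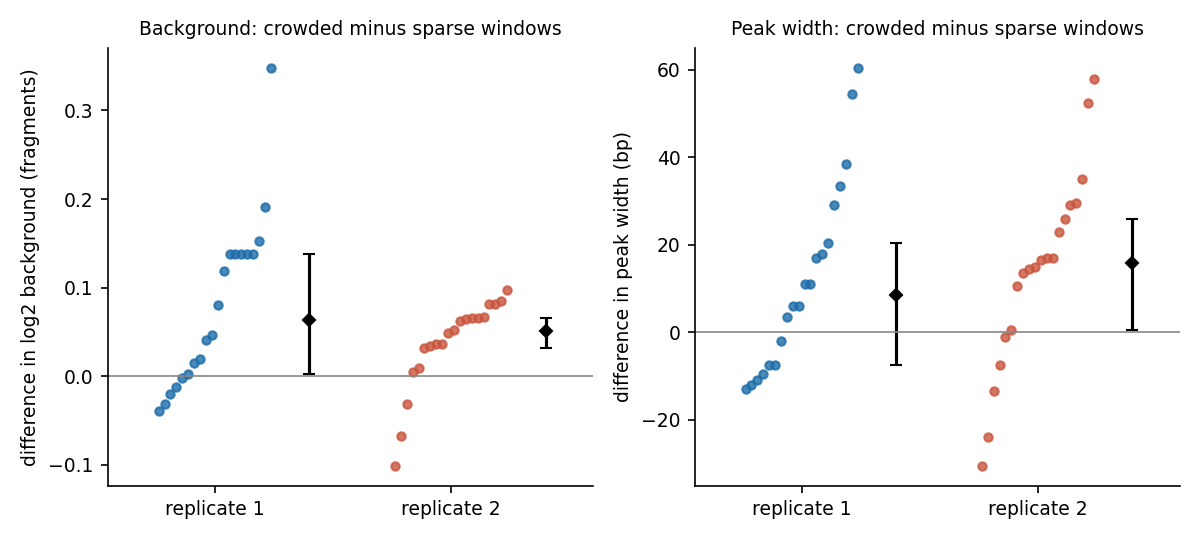
Difference between crowded and sparse windows in the median log2 background (left) and the median peak width in bp (right), 1 point per chromosome in order of size, with the median over 20 chromosomes and its interval (diamond and bar, 95.9% coverage). In replicate 2 the background points lie above 0 on 17 chromosomes and the width points on 15.

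No difference was detected in how closely the replicates placed a site. Summits of the replicates lay a median of 23 bp apart in members (interquartile range 10 to 44) and 21 bp in sparse-window sites (9 to 41). Over chromosomes the difference had a median of 0.5 bp (interval -2.0 to 4.5), with 10 chromosomes higher, 9 lower and 1 equal (exact sign test, p = 1, adjusted p = 1). Summits lay within 100 bp in 94.8% of members (93.6 to 95.8) and in 95.4% of sparse-window sites (95.0 to 95.8). Across the 1709 members the fold enrichment of the replicates had a Spearman rho of 0.838, and across sparse-window sites 0.824.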

How the data were processed

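The study has 2 ChIP and 2 input samples, and a deposited MACS2 peak list was used for each ChIP library. Alignment with Bowtie 0.12.7 is named in the submitters' processing notes, and the peak names give a q threshold of 0.01. The control used, duplicate handling and genome build are not stated in the sources used here. The authors deposited for each peak a fold enrichment (a ratio), −log10 p and −log10 q values and a score, 10 times the −log10 q with the decimals dropped. The score was not used.

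Peaks overlapping by at least 1 bp were joined, with the widest peak of a list standing for it. Scaffolds, with 194 of 36297 regions and at most 8 in a window, were left out. ChIP pileups and backgrounds were solved from fold enrichment and p as a Poisson tail (within 0.001 of the deposited −log10 p), for 100% of peaks in replicate 1 and all but 1 in replicate 2. Differences up to 1e-04 counted as equal. Tests used SciPy 1.17.1 in Python 3.11.15 and had a threshold of 0.05 after adjustment. The sign test was checked on simulated data for replicate 1 fold enrichment alone. Values were shuffled freely over sites there, which removes any likeness of sites within a window or chromosome. The other measures were not checked in this way. The members, measures and tests were chosen with earlier results of these data known. Read depth was not known from the lists, and the lowest background, 3.00 and 6.36 fragments in replicates 1 and 2, is not a direct measure of it. Named sites are the 5 fullest windows, the fullest adjacent pairs, the 5 members with the highest lower-of-both fold enrichment, the windows with the highest and lowest replicate 2 median and the closest pair. The windows with 6 tall sites, the lowest member and the chromosomes named for their medians were chosen after their values were seen.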

Additional observations from a re-analysis of the deposited data

How the results depend on the processing

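Of 85 values under other settings, 63 stayed on the same side of the threshold without a reversed direction (for counts, within 1.5 times). Differences of 0 bp were counted among them. These were the replicate 1 width against windows of 4 to 9 and the summit distance in regions with 1 peak of each replicate. No setting brought fold enrichment past the threshold. Its log2 difference in replicate 1 lay between -0.10 and 0.0010, the latter without replicate 2 and the one of opposite sign. In replicate 2 it lay between -0.01 and 0.07, and was negative with windows cut from 25 kb (-0.012) and without replicate 1 (-0.0041). The distance between summits turned to -1.0 bp with q of 1e-10 or less and in the outer zones. The replicate 1 background passed the threshold with windows cut from 25 kb (0.041, adjusted p = 0.00510, exact sign test) and without replicate 2 (0.054). The replicate 2 background lost its call at 0.023 with windows cut from 25 kb, 0.021 with at least 12 sites, 0 with q of 1e-10 or less, 0.0012 against windows of 4 to 9 and 0.011 in the outer zones, and was 0.068 without replicate 1. Peak width passed in the single lists (11.2 bp without replicate 2 and 19.2 bp without replicate 1). Crowded windows numbered 27 with 343 members with at least 12 sites, 20 with 210 with q of 1e-10 or less, and 257 with 2803 to 553 with 6153 peaks in single lists, by construction. The cause of the other changes was not tested. With at least 12 sites 12 chromosomes had crowded windows, and with q of 1e-10 or less 13, so fewer values entered. Distance between summits needs both lists. No paired analysis was possible because no file of the inputs themselves was analysed here. With 2 replicates whose lists differ in lowest background and number of peaks, absence of a site from 1 list does not show that it was unbound there.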
